A study of Mus musculus with 22 samples.

Results

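The libraries described here are the 20 of the series' 22 RNA libraries from mouse striatum in which the response to self-administered oxycodone was read in both striatal regions at once: 10 from the dorsal striatum (labelled CPU, the caudate putamen) and 10 from the ventral striatum. All came from male C57BL/6J mice. Mice of the oxycodone groups took the opioid intravenously by their own responses, at 0.25 mg/kg per infusion in sessions of 4 hours a day over 14 days, and the yoked saline controls received saline infusions over the same sessions, so that both treatments share the infusions, the sessions and the strain and differ in the drug and in who controlled its delivery. Each of the 4 combinations of treatment and region held 5 libraries. The labels do not tie a library to a mouse, so p-values measure the spread between these libraries. The titles number the libraries, and each number of a dorsal library is also that of a ventral library of the same treatment. Within the dorsal striatum 2 oxycodone libraries share the number 3 and 2 saline libraries the number 4, 1 of each pair with the suffix P. Whether libraries of 1 number came from 1 mouse is not stated. If they did, the regions are not independent. All libraries were counted separately (n = 5 a group). With each dorsal pair summed the fit described below called 89 genes in place of 79, 69 of them shared.

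The other 2 libraries, both ventral (oxycodone replicate 6 and saline replicate 6), were left out. They were chosen by the levels of region and cell type markers measured in these same data, so those levels are a description and no test. In the left-out oxycodone library the dorsal striatal markers averaged 6.74 log2 CPM (counts scaled to the total of the library) against 5.40 to 5.81 in the 10 ventral libraries kept, the ventral markers averaged 3.59 against 4.77 to 5.22, and the choroid plexus and ependyma markers averaged 3.28 against 0.67 to 1.37. In the left-out saline library the markers of cortical and other glutamatergic neurons averaged 6.36 against 3.27 to 4.53, and those of D1 projection neurons, a principal cell type of the striatum, averaged 2.62 against 5.21 to 5.58. The kept libraries carried the markers of their labelled region: the dorsal markers averaged 6.68 to 7.16 in the dorsal libraries and the ventral markers 3.31 to 4.08. Choroid plexus markers ranged from 1.22 to 4.05 across the dorsal libraries. The ventral libraries kept held 8408829 to 10007992 counts each and the dorsal ones 11314079 to 21921963.

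Oxycodone is an agonist of the mu opioid receptor, which striatal neurons express together with the opioid peptide precursors Penk and Pdyn. The striatum also holds microglia, its resident macrophages, and a vascular bed whose vessels carry circulating leukocytes and red cells. Phagocytes read bacterial and host danger signals through formyl peptide, complement and Fc receptors and answer with an oxidative burst, cytokines and adhesion molecules. Interferons and the interleukin 6 family act on target cells through Janus kinases and STAT transcription factors, which bind a short palindrome called the gamma-activated site in genes such as Irf1 and Socs3. In bulk RNA from tissue, more cells of a type and more RNA per cell cannot be told apart.

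A group of genes of phagocytes, leukocytes and the innate immune response was higher in both striatal regions after oxycodone. In the fit of treatment with region as a covariate, 79 of 14648 genes tested passed an adjusted p of 0.05 (0.539%), of which 71 were higher after oxycodone (0.485%) and 8 were lower (0.0546%). The called genes are those past this threshold. The 71 rises had a median of 2.15-fold, and 39 of them were 2-fold or more. Without adjustment 1453 genes passed a p of 0.05 (9.92%), where 732 would be expected if no gene differed, 817 of them higher and 636 lower. The median log2 fold change over all genes tested was -0.01.

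The changes had the same sign in the dorsal and the ventral striatum for each of the 79 genes, and 75 of them also passed an unadjusted p of 0.05 in each region taken alone. The common fit uses both regions, so a shared sign among its calls is partly fixed by the choice. Counted without that choice, 186 of 14891 genes passed an unadjusted p of 0.05 in both regions on libraries that the regions do not share, and 173 of them moved in the same direction (1.16%), 147 up and 26 down, against 13 in opposite directions. The count of 173 fell to 92 without both libraries that carry the title number 7, described further on, to 97 without oxycodone ventral replicate 4 alone, and to 110 with the haemoglobin level (the mean of 4 haemoglobin genes) as a covariate, and it was 273 without oxycodone ventral replicate 1. The libraries numbered 7, 1 in each region, had deviations from their group means that correlated at 0.32 across genes, and whether they came from 1 mouse is not stated. No gene passed an adjusted p of 0.05 for the difference between the regions in edgeR, where 611 passed unadjusted and the smallest adjusted p was 0.297. DESeq2 and limma-voom called none for that difference either. Among the 79 genes C5ar1, Ehd1, Baiap2, Snx1 and Wdr6 had an unadjusted p under 0.05 for the difference.

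**Figure D1:**
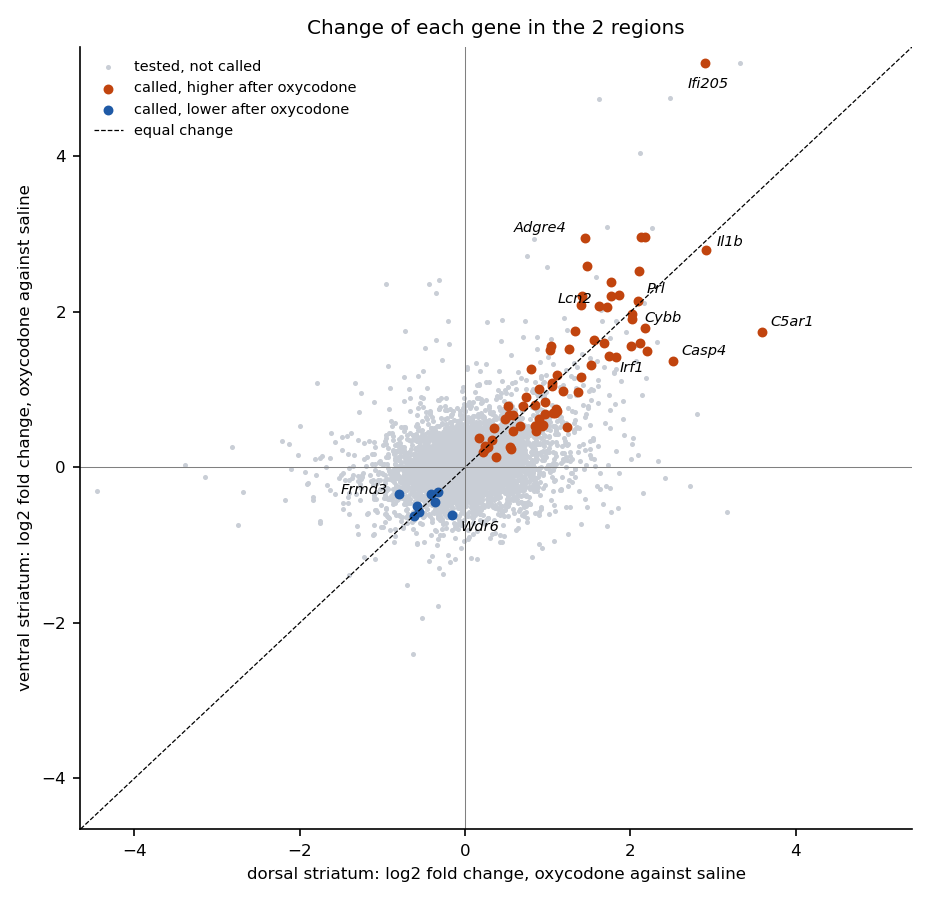
Log2 fold change of each gene, oxycodone against saline, in the dorsal striatum (horizontal) and the ventral striatum (vertical), each from 5 libraries a group; grey points are genes not called, orange and blue points the 71 called higher and 8 called lower. The called genes lie in the upper right and lower left parts of the plot, and the dashed line marks an equal change.

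The phagocyte and leukocyte list held the most called genes of the lists examined. All lists were written with earlier results of these data known, so their shares of called genes are a description and no test. Of its 46 members tested 18 rose and none fell (39.1%, against 0.539% of all genes), 43 had a positive change, and the median log2 fold change was 0.89. The list includes the pan-leukocyte phosphatase Ptprc (CD45), the integrin alpha chain Itgal of LFA-1, the NADPH oxidase subunits Cybb and Cyba, the Fc receptors Fcgr3 and Fcgr4, the formyl peptide receptor Fpr2, the kinase Fgr, and Lyz2 (lysozyme). Without both libraries numbered 7, 8 of 45 rose and the median was 0.61, and with all 22 libraries 5 of 46 rose and the median was 0.69. With the haemoglobin level as a covariate none of 51 was called by edgeR, 20 passed an unadjusted p of 0.05 and the median was 0.51. Of all genes 1050 of 15273 passed unadjusted in that fit.

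Ptprc (chr1:138062861-138175708, GRCm38, as for all positions here) marks all nucleated blood cells and, at a lower level, microglia. Dorsal levels of Ptprc were 11.4, 16.04, 13.3, 14.05 and 13.2 CPM in the 5 saline libraries and 23.6, 33.3, 19.8, 22.3 and 42.5 CPM in the 5 oxycodone libraries. Ventral levels were 12.3, 8.6003, 12.3, 7.398 and 8.72 CPM after saline and 12.3, 15.9, 17.5, 38.8 and 17.8 CPM after oxycodone. All oxycodone values exceeded all saline values in the dorsal striatum, and in the ventral striatum 4 of 5 did, with oxycodone replicate 4 standing well above the rest. The level was 2.07-fold higher over both regions, with a log2 fold change of 1.05 ± 0.17 (SE) and an adjusted p of 0.00517.

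Cybb (chrX:9435252-9487771) encodes gp91phox, the electron-transferring subunit of the phagocyte oxidase. The 5 saline libraries of the dorsal striatum gave 1.25, 2.48, 3.46, 1.91 and 0.936 CPM and the 5 oxycodone libraries 4.45, 6.24, 7.71, 8.46 and 13.8 CPM. The ventral libraries gave 1.81, 1.27, 1.09, 1.41 and 0.323 CPM after saline and 1.68, 2.52, 2.72, 12.5 and 4.09 CPM after oxycodone. The dorsal groups did not overlap, and 4 of 5 ventral oxycodone libraries lay above all ventral saline libraries. Cybb rose 3.9997-fold (log2 fold change 2.00 ± 0.34, adjusted p = 0.00517). Its partner Cyba, the membrane subunit of the same oxidase, rose 1.702-fold by the edgeR fit (adjusted p = 0.0334). Mean levels of Cyba went from 8.29 ± 2.63 to 15.5 ± 4.33 CPM (SD, n = 5) in the dorsal and from 4.497 ± 1.06 to 6.92 ± 2.27 CPM in the ventral striatum.

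Lyz2 (chr10:117277331-117282321) encodes lysozyme of macrophages and neutrophils, and its groups were apart in both regions. Its dorsal values were 11.9, 10.8, 10.3, 16.1 and 13.6 CPM after saline and 24.3, 27.9, 22.3, 29.98 and 76.4 CPM after oxycodone. Ventral values were 7.47, 3.61, 6.99, 2.83 and 3.34 CPM and 7.82, 8.23, 7.72, 27.8 and 9.096 CPM in the same order. The rise was 2.69-fold (log2 fold change 1.43 ± 0.29, adjusted p = 0.0269), and the highest value of each region stood far from the rest, in oxycodone dorsal replicate 5 and oxycodone ventral replicate 4. Without those 2 libraries the log2 fold change was 0.93 with an adjusted p of 0.010002.

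Fpr2 (chr17:17887824-17893952), a receptor for formyl peptides and for serum amyloid A, was the gene with the smallest adjusted p, a value of 0.00517 that it shared with 10 others. In the dorsal striatum Fpr2 stood at 0.713, 1.33, 1.803, 1.41 and 0.936 CPM in the 5 saline libraries and at 3.67, 6.6998, 3.31, 3.73 and 10.8 CPM in the 5 oxycodone libraries. In the ventral striatum it stood at 0.213, 0.106, 0.546, 0.326 and 0.108 CPM after saline and 0.396, 1.72, 1.703, 5.09 and 1.64 CPM after oxycodone. The dorsal groups did not overlap, and in the ventral striatum oxycodone replicate 1 lay inside the saline range. The fold was 5.48 (log2 fold change 2.45 ± 0.38). C5ar1 (chr7:16246743-16259540), the receptor for the complement fragment C5a, was close to the detection limit after saline. Dorsal levels of C5ar1 were 0, 0, 0.433, 0.0909 and 0.187 CPM in the 5 saline libraries and 1.78, 2.29, 2.02, 1.004 and 2.41 CPM in the 5 oxycodone libraries. Ventral levels were 0.853, 0.319, 0.218, 0.435 and 0.861 CPM after saline and 1.49, 0.915, 1.82, 3.27 and 1.64 CPM after oxycodone. All 5 oxycodone libraries exceeded all 5 saline libraries in each region. It rose 6.06-fold (adjusted p = 0.00517), with log2 fold changes of 3.59 ± 0.64 in the dorsal and 1.74 ± 0.60 in the ventral striatum.

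The other called members of the list behaved alike in direction. Plac8, a small protein of myeloid and lymphoid cells, rose 4.78-fold, the alarmin subunit S100a8 3.89-fold, Itgal 3.68-fold and the cytokine receptor chain Csf2rb 3.11-fold. Fcgr4 rose 3.795-fold, Fgr 3.73-fold, Slfn2 2.595-fold and the lipopolysaccharide co-receptor Cd14 2.42-fold. With 1 library left out Plac8, Itgal and Csf2rb passed in all 20 edgeR fits and S100a8 in 19. Fcgr4 passed in 11, Cd14 in 10, and Fgr and Slfn2 in 6 each. Without the libraries numbered 7 none of Fcgr4, Fgr, Slfn2 and Cd14 was called (adjusted p from 0.154 for Cd14 to 0.331 for Fgr). With all 22 libraries none of them was called either. Smaller rises were those of Lcp2 (1.86-fold), an adaptor of antigen and Fc receptors, Lcp1 (1.77-fold), an actin bundling protein of leukocytes, and Fcgr3 (1.57-fold). The partner of S100a8, S100a9, was not called, at a log2 fold change of 1.27 ± 0.42 (adjusted p = 0.2). Among called myeloid genes that are on no list, Treml4 rose 5.34-fold, Pilra 4.03-fold, Adgre4 3.96-fold and Atp8b4 3.99-fold. With 1 library left out Treml4, Pilra and Adgre4 passed in all 20 edgeR fits and Atp8b4 in 10.

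**Figure D2:**
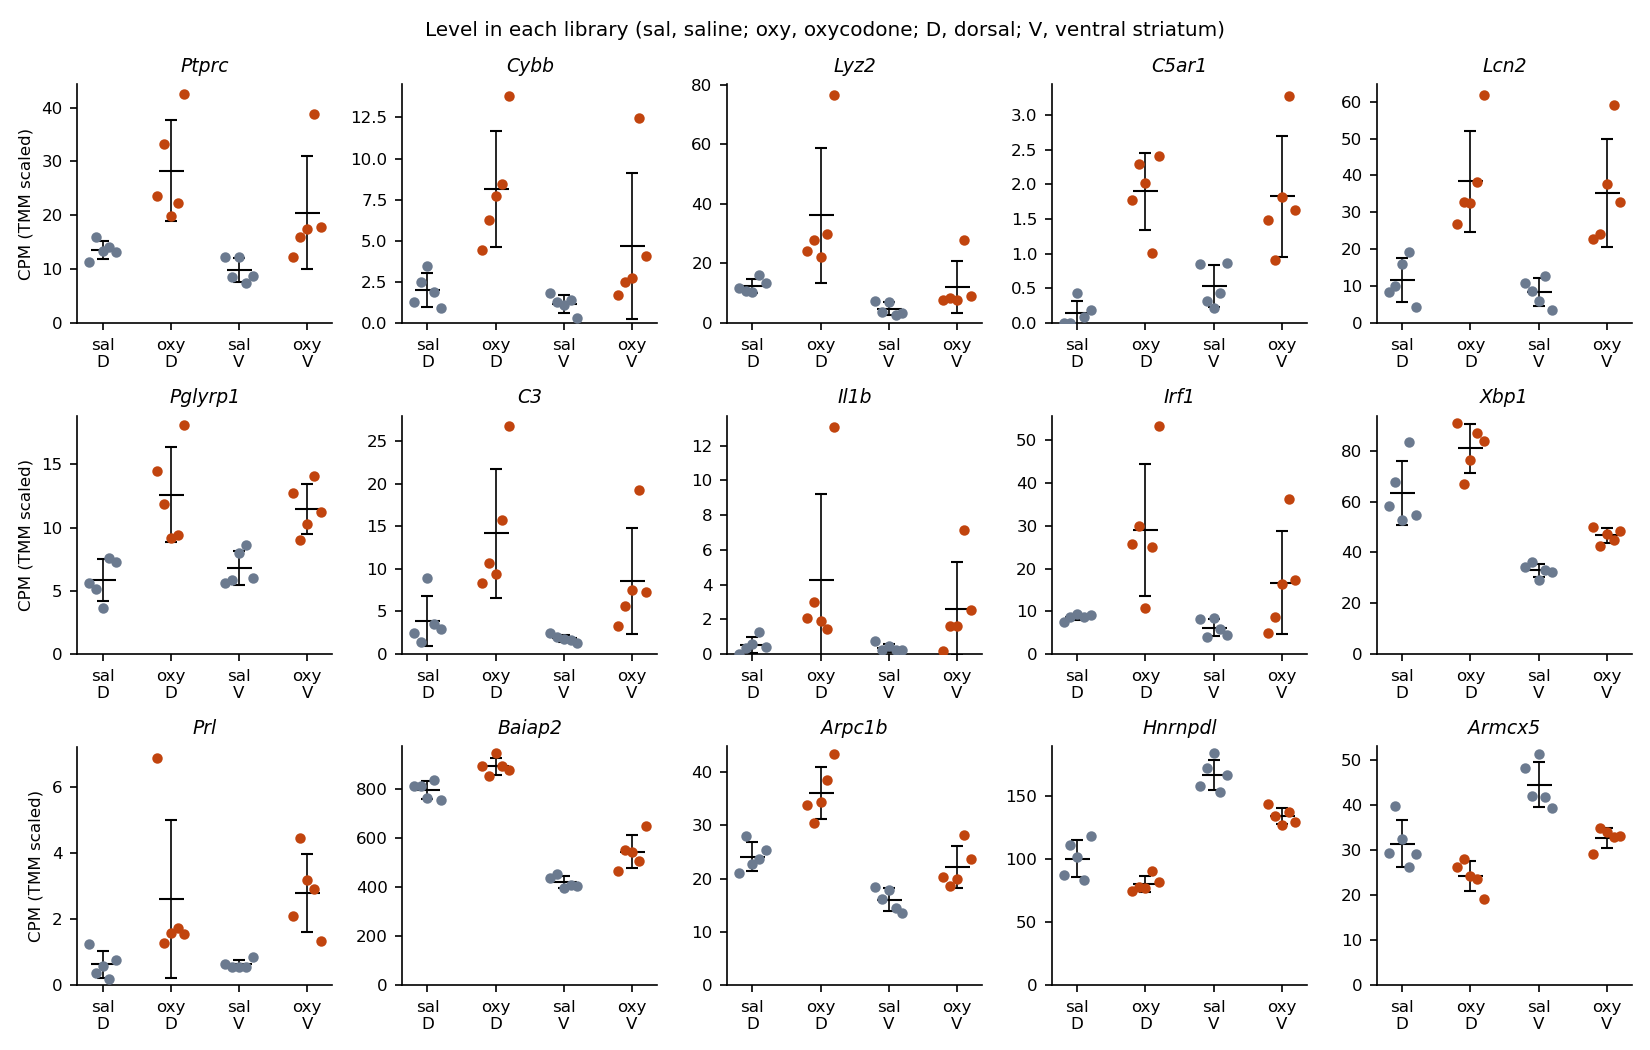
Level of 15 genes in each of the 20 libraries, in CPM scaled by TMM factors; each point is a library, horizontal marks and bars are the mean and SD of 5 libraries (bars are clipped at 0). Oxycodone points lie above saline points in both regions for C5ar1, Lcn2, Pglyrp1, Lyz2, Prl, Baiap2 and Arpc1b, and below most of them for Hnrnpdl and Armcx5.

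Of 20 genes of the homeostatic state of resident microglia 1 was called (5%, against 0.539% of all genes), Csf1r, the receptor for colony stimulating factor 1 on which microglia depend, which rose 1.195-fold (adjusted p = 0.0334). Its mean went from 166 ± 7.22 to 196 ± 20.7 CPM (SD, n = 5) in the dorsal and from 116 ± 11.5 to 141 ± 16.7 CPM in the ventral striatum. The list's median log2 fold change was 0.13, and 14 of the 20 had a positive change. An unadjusted p of 0.05 was passed by 8 of the 20 in edgeR, against 9.92% of all genes. The purinergic receptor P2ry12 had a log2 fold change of -0.19 ± 0.08 (adjusted p = 0.45), and the fractalkine receptor Cx3cr1 one of 0.05 ± 0.08 (adjusted p = 0.911). The summed level of the 20 genes was 1853 to 1966 CPM in saline and 1860.1 to 2222 CPM in oxycodone dorsal libraries, and 1249.9 to 1436 against 1297 to 1524 CPM in ventral libraries, so the groups overlapped in both regions.

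Lcn2, Pglyrp1 and Hp, secreted proteins of innate defence that were put side by side here after their values were seen, were each called. Lcn2 (chr2:32384633-32388252), lipocalin 2, binds bacterial siderophores and is also a marker of reactive astrocytes and of glucocorticoid action. The 5 saline libraries of the dorsal striatum gave 8.29, 9.93, 16.1, 19.3 and 4.398 CPM and the 5 oxycodone libraries 26.8, 32.8, 32.4, 38.3 and 61.8 CPM. The ventral libraries gave 10.9, 8.71, 6.01, 12.8 and 3.66 CPM after saline and 22.8, 24.2, 37.8, 59.05 and 32.8 CPM after oxycodone. No saline library reached the lowest oxycodone library of its region. The rise was 3.68-fold (log2 fold change 1.88 ± 0.28, adjusted p = 0.00517). Over all genes tested, 10 had all 5 oxycodone libraries above all 5 saline libraries in both regions (0.0683%): Lcn2, Pglyrp1, Arpc1b, C5ar1, Prl, Ehd1, Baiap2, Lyz2, an unnamed gene model and Stat3, the last with an adjusted p of 0.0518 and so not called. This count restates the direction of the calls and is a description.

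Pglyrp1 (chr7:18871331-18890459) encodes a peptidoglycan recognition protein of neutrophil granules. Its dorsal values were 5.62, 5.14, 3.61, 7.64 and 7.25 CPM after saline and 14.5, 11.9, 9.15, 9.395 and 18.1 CPM after oxycodone. Ventral values were 5.65, 5.84, 7.97, 8.59 and 6.03 CPM and 12.8, 9.03, 10.3, 14.1 and 11.2 CPM in the same order. The groups were apart in both regions, and the level was 1.91-fold higher (log2 fold change 0.93 ± 0.16, adjusted p = 0.00517). Hp, haptoglobin, which binds free haemoglobin, rose 3.18-fold by the edgeR fit. Mean levels of Hp went from 2.96 ± 1.25 to 7.76 ± 3.11 CPM in the dorsal and from 0.626 ± 0.239 to 2.72 ± 1.52 CPM (SD, n = 5) in the ventral striatum. Steap4, a metalloreductase induced in inflammation, rose 3.28-fold. Ceruloplasmin (Cp) had a fold of 1.57 with an adjusted p of 0.108, and serum amyloid A3 (Saa3) a log2 fold change of 3.85 ± 0.96 with an adjusted p of 0.0854, so neither was called.

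Of the complement list 3 of 17 genes tested rose (17.6%, against 0.539% of all genes called): C3, C5ar1 and the integrin chain Itgb2 of the complement receptors CR3 and CR4. The list's median log2 fold change was 0.31, and 1 of 18 was called with all 22 libraries. C3 (chr17:57203970-57228136), the component on which all activation routes converge, is made in brain by reactive glia and by phagocytes. In the dorsal striatum C3 stood at 2.496, 1.42, 8.94, 3.55 and 2.99 CPM in the 5 saline libraries and at 8.34, 10.7, 9.37, 15.8 and 26.7 CPM in the 5 oxycodone libraries. In the ventral striatum it stood at 2.45, 2.02, 1.75, 1.63 and 1.29 CPM after saline and 3.27, 5.603, 7.49, 19.3 and 7.26 CPM after oxycodone. The ventral groups did not overlap. In the dorsal striatum saline replicate 3 lay above the lowest oxycodone library. C3 rose 4.04-fold (log2 fold change 2.01 ± 0.33, adjusted p = 0.00517), and Itgb2 rose 1.85-fold (adjusted p = 0.0144). The C1q subunit C1qa, a microglial product, had a log2 fold change of 0.37 ± 0.10 and was not called (adjusted p = 0.108).

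Of 37 cytokine, chemokine and receptor genes tested 3 rose (8.11%, against 0.539% of all genes called), and the median log2 fold change of the list was 0.29. The number called was 1 without the libraries numbered 7, 0 with all 22 libraries (10 past an unadjusted p of 0.05) and 7 each with DESeq2 and limma-voom with quality weights. In the same order 33 of 14663, 31 of 14683, 223 of 16966 and 604 of 14648 genes were called over all. The genes called by edgeR included Il1b, the pyrogenic cytokine interleukin 1 beta, and the interleukin 4 receptor chain Il4ra. Il1b (chr2:129364570-129371139) was a gene of few reads. Dorsal levels of Il1b were 0, 0.355, 0.577, 1.27 and 0.421 CPM in the 5 saline libraries and 2.06, 2.98, 1.87, 1.43 and 13.05 CPM in the 5 oxycodone libraries. Ventral levels were 0.747, 0.212, 0.437, 0.218 and 0.215 CPM after saline and 0.198, 1.601, 1.59, 7.15 and 2.56 CPM after oxycodone. The dorsal groups did not overlap. Oxycodone ventral replicate 1 held the lowest Il1b value of its region, and the other 4 oxycodone libraries lay above all saline libraries. The fold was 7.28 (log2 fold change 2.86 ± 0.55, adjusted p = 0.011), and without the libraries of title number 7 the log2 fold change was 1.94 with an adjusted p of 0.095. Il4ra rose 2.09-fold (adjusted p = 0.00977). Casp4, the inflammatory caspase that senses cytosolic lipopolysaccharide, rose 3.92-fold.

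In the interferon list 4 of 46 genes tested rose, Irf1, Socs3, Irgm2 and Ifitm2 (8.70%, against 0.539% of all genes called). A positive change was seen in 45 of the 46, against 48.1% of all genes tested, with a median log2 fold change of 0.67 (dorsal 0.86, ventral 0.43). DESeq2 called 15 of 49 (against 223 of 16966 genes) and limma-voom with quality weights 7 of 46 (against 604 of 14648). Without the libraries of title number 7 the median was 0.31 and 2 were called, and with the haemoglobin covariate it was 0.15 and edgeR called none, with 7 past an unadjusted p of 0.05. Irf1 (chr11:53770014-53778374) is a transcription factor induced by interferons. The 5 saline libraries of the dorsal striatum gave 7.399, 8.598, 9.37, 8.73 and 9.03 CPM and the 5 oxycodone libraries 25.7, 29.9, 10.8, 25.03 and 53.4 CPM. The ventral libraries gave 8.105, 4.03, 8.41, 5.77 and 4.41 CPM after saline and 4.95, 8.69, 16.3, 36.3 and 17.4 CPM after oxycodone. Saline values were tightly grouped in the dorsal striatum and lay below every oxycodone value. In the ventral striatum oxycodone replicate 1 fell among the saline libraries. Irf1 rose 3.04-fold (log2 fold change 1.60 ± 0.30, adjusted p = 0.0164).

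Socs3 (chr11:117966079-117970047), the feedback inhibitor of signalling through the interleukin 6 receptor chain gp130, rose 2.86-fold (log2 fold change 1.52 ± 0.35, adjusted p = 0.0343). Its dorsal values were 0.713, 1.95, 1.51, 1.18 and 2.48 CPM after saline and 1.45, 5.15, 1.59, 4.23 and 7.52 CPM after oxycodone. Ventral values were 0.6399, 0.743, 1.202, 0.8704 and 0.538 CPM and 1.29, 1.37, 2.497, 5.94 and 2.56 CPM in the same order. The ventral groups did not overlap, and in the dorsal striatum oxycodone replicates 1 and 3 lay within the saline range. In edgeR Socs3 passed in 8 of the 20 fits with 1 library left out. Its adjusted p was 0.271 without the libraries of title number 7 and 0.295 with all 22 libraries. Irgm2, an immunity-related GTPase, rose 2.45-fold (adjusted p = 0.0125), and Ifitm2, a membrane protein that restricts viral entry, 1.62-fold (adjusted p = 0.0346). With 1 library left out Irgm2 passed in all 20 fits and Ifitm2 in 8. Ifi205, a member of the interferon-inducible PYHIN family, had the largest fold of any called gene, 11.7 by the edgeR fit. Mean levels of Ifi205 went from 0.316 ± 0.2399 to 2.38 ± 3.17 CPM in the dorsal and 0.0428 ± 0.0587 to 1.97 ± 2.796 CPM (SD, n = 5) in the ventral striatum. That gene had so few reads that it fell under the filter once the libraries of title number 7 were removed. It passed in 14 of the 20 fits with 1 library left out.

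The gamma-activated site, TTCNNNGAA, which is its own reverse complement, was looked for in RefSeq promoters (GRCm38.p6, 250 bases before to 50 after each start). A promoter was at hand for 52 of the 71 genes that rose, and 8 of the 52 held the site (15.4%, or 14.8% of their 61 promoters): Ctla2a, Emilin2, Fpr2, Irf1, Irgm2, Plekhg4, Socs3 and Steap4. Among the 11280 tested genes with a promoter, 8.21% held it (6.80% of their promoters), and among all 32851 promoters at hand 8.30% did. None of the 8 genes that fell held it. The endoplasmic reticulum stress element (CCAAT and CCACG with 9 bases between) and the glucocorticoid element (AGAACA and TGTTCT with 3 bases between), searched on both strands, were in no promoter of a called gene, and in 0.125% and 0.0069% of promoters of tested genes. These are matches of letters and not measured binding.

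The stretches around the site are shown for 6 of these 8 genes, picked after the matches were seen: Irf1, Socs3 and Irgm2 of the interferon list, Fpr2 of the phagocyte list, Steap4 of the astrocyte list, and Emilin2, an extracellular matrix protein on no list. Each is written 5′ to 3′ on the gene's own strand, ends before a RefSeq transcript start, and has the match in capitals. For Socs3 and Irgm2 the stretch lies inside the gene span of GENCODE, from which the gene positions were taken.
Irf1 (chr11:53769884-53769972, plus strand, 90 bases before the start): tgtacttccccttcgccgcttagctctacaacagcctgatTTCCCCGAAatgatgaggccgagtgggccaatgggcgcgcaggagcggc
Socs3 (chr11:117969472-117969560, minus strand, 154 bases before the start): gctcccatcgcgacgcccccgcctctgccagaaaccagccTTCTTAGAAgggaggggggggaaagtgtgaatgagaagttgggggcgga
Irgm2 (chr11:58214862-58214950, plus strand, 75 bases before the start): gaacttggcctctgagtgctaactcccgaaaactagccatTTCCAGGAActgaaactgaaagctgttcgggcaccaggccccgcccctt
Fpr2 (chr17:17887707-17887795, plus strand, 77 bases before the start): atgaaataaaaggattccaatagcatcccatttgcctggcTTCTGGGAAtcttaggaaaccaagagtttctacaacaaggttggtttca
Steap4 (chr5:7960316-7960404, plus strand, 116 bases before the start): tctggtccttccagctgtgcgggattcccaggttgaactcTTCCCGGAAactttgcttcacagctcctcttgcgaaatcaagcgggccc
Emilin2 (chr17:71311048-71311136, minus strand, 85 bases before the start): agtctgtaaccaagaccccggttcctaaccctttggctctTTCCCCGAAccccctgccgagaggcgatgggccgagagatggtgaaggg
Irf1 and Emilin2 carry the same 9 letters at the match.

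None of the 25 genes tested of the MHC class I and class II, peptide loading and immunoproteasome list was called by edgeR, though all 25 had a positive change and the median log2 fold change was 0.76. At an unadjusted p of 0.05, 17 of them passed, against 9.92% of all genes. DESeq2 called 3 (against 223 of 16966 genes) and limma-voom with quality weights 1 (against 604 of 14648). The transactivator Nlrc5 had a fold of 2.43 (adjusted p = 0.098), from 6.63 ± 2.09 to 19.05 ± 12.03 CPM (SD, n = 5) in the dorsal and from 5.71 ± 2.37 to 11.5 ± 8.82 CPM in the ventral striatum. The immunoproteasome subunit Psmb9 had a fold of 2.29 (adjusted p = 0.0882) and the class I gene H2-Q4 one of 1.92 (adjusted p = 0.136). Genes of the class I family share sequence, and how reads that fit several of them were counted is not given in the sources used here. The list's median was 0.33 without the libraries of title number 7.

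**Figure D3:**
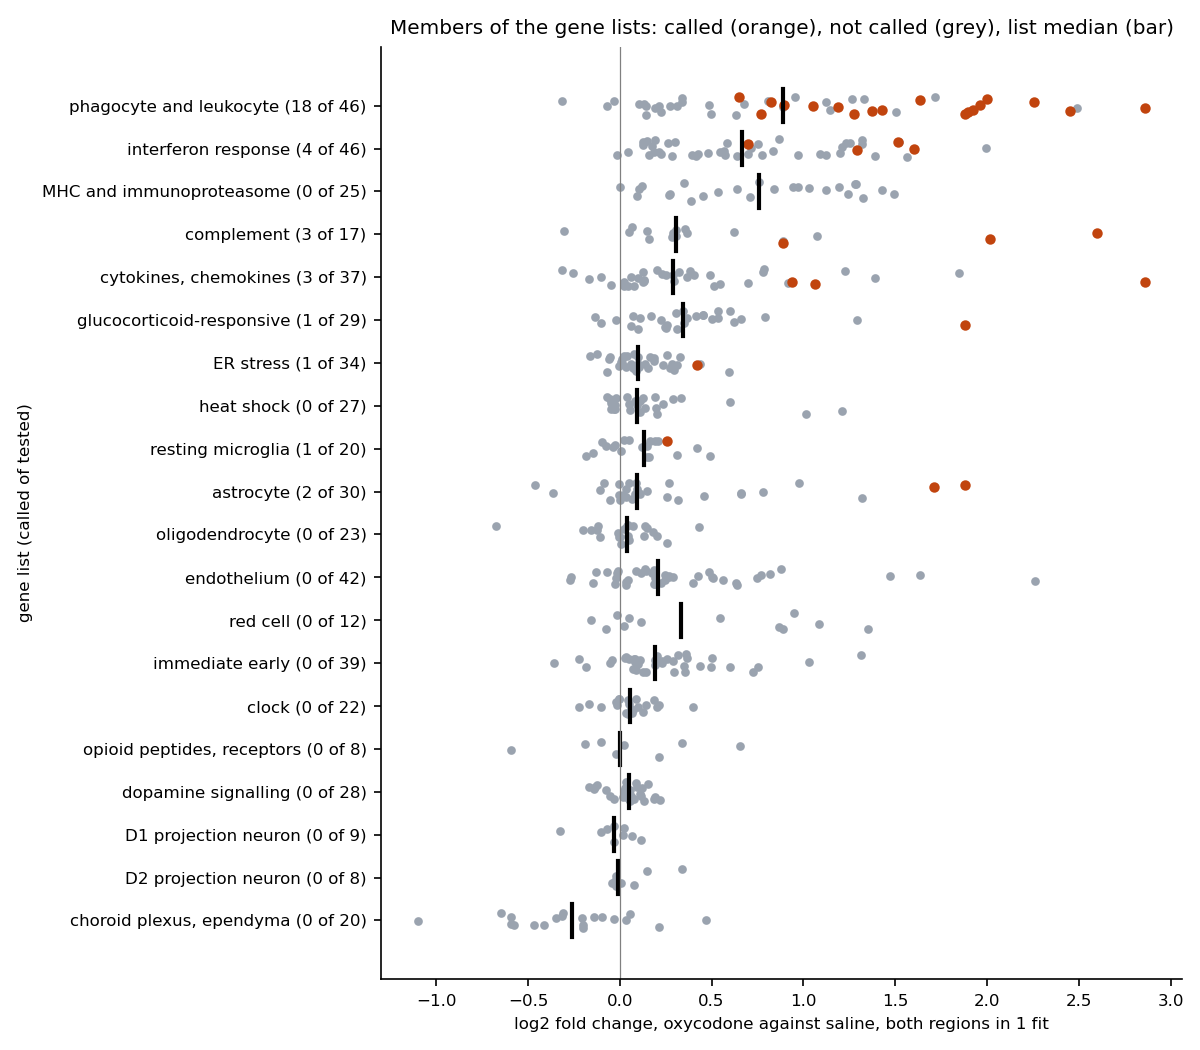
Log2 fold change of the members of 20 gene lists in the fit of both regions, 1 point a gene, orange where called; the black bar is the list's median, and the numbers after each name are called of tested. The phagocyte and leukocyte list holds 18 called genes, and the opioid, dopamine signalling and projection neuron lists lie around 0.

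Stress and hormone response genes were examined as a separate group. Xbp1 (chr11:5520659-5525893), whose product drives the unfolded protein response of the endoplasmic reticulum once its mRNA is spliced, was the 1 gene that edgeR called among 34 of that list (2.94%, against 0.539% of all genes). DESeq2 called 1 of the list (against 223 of 16966 genes) and limma-voom with quality weights 8 (against 604 of 14648). In the dorsal striatum Xbp1 stood at 58.2, 67.8, 52.6, 83.6 and 54.6 CPM in the 5 saline libraries and at 90.8, 66.7, 76.3, 86.9 and 83.7 CPM in the 5 oxycodone libraries. In the ventral striatum it stood at 34.3, 36.1, 29.1, 32.97 and 32.3 CPM after saline and 49.8, 42.7, 47.3, 44.9 and 48.5 CPM after oxycodone. The ventral groups were apart, while in the dorsal striatum saline replicates 2 and 4 lay within the oxycodone range. The rise was 1.34-fold (log2 fold change 0.42 ± 0.08, adjusted p = 0.00708), and the log2 fold change without the libraries of title number 7 was again 0.42 (adjusted p = 0.0267). The chaperone Hspa5 had a fold of 1.35 and an adjusted p of 0.144. Its level went from 292 ± 27.1 to 456 ± 84.9 CPM (SD, n = 5) in the ventral striatum with no overlap of the groups, and from 367 ± 103 to 430.4 ± 87.04 CPM in the dorsal striatum with overlap. Of the 34 genes 28 had a positive change, with a median log2 fold change of 0.10.

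Of 29 glucocorticoid-responsive genes tested edgeR called 1, Lcn2 (3.45%, against 0.539% of all genes). DESeq2 called 5 (against 223 of 16966 genes) and limma-voom with quality weights 11 (against 604 of 14648). Of the 29 genes 26 had a positive change, and the median log2 fold change was 0.34. Zbtb16, a transcription factor strongly induced by corticosterone, had a fold of 1.73 and an adjusted p of 0.0568, just outside the threshold. Its means were 24.7 ± 6.59 and 46.2 ± 7.66 CPM (SD, n = 5) in the dorsal and 29.5 ± 3.93 and 46.9 ± 19.6 CPM in the ventral striatum, saline first. The glucocorticoid receptor co-chaperone Fkbp5 had a fold of 1.27 (adjusted p = 0.219). None of 27 heat shock genes was called by edgeR, with 6 past an unadjusted p of 0.05 (against 9.92% of all genes). DESeq2 called none of them and limma-voom with quality weights 1. Hspa1b had a log2 fold change of 1.21 ± 0.37 (adjusted p = 0.159). Dnaja4, a heat shock co-chaperone that was on none of the lists, rose 1.27-fold (adjusted p = 0.0488). It passed in 3 of the 20 edgeR fits with 1 library left out.

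Some called genes rose by a small factor with little spread between libraries. Baiap2 (chr11:119942763-120006782) encodes IRSp53, a postsynaptic scaffold that shapes the actin of dendritic spines. Dorsal levels of Baiap2 were 813, 813, 762, 836 and 753 CPM in the 5 saline libraries and 893, 851, 945, 894 and 877 CPM in the 5 oxycodone libraries. Ventral levels were 436, 454, 394, 408 and 405 CPM after saline and 466, 552, 544, 505 and 648 CPM after oxycodone. The groups were apart in both regions at a fold of 1.205 (log2 fold change 0.27 ± 0.05, adjusted p = 0.0115), and the log2 fold change was 0.29 without the libraries of title number 7. Arpc1b (chr5:145114215-145130705), a subunit of the Arp2/3 actin nucleator found mainly in blood cells, stood at 21.04, 27.9, 22.7, 23.6 and 25.4 CPM after saline and 33.9, 30.4, 34.3, 38.4 and 43.3 CPM after oxycodone in the dorsal striatum. Its ventral values were 18.4, 16.1, 17.8, 14.5 and 13.4 CPM and 20.3, 18.6, 19.98, 28.3 and 23.7 CPM. No oxycodone value of Arpc1b reached down to the saline values of its region, and it rose 1.44-fold (adjusted p = 0.00517).

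Ehd1, an ATPase of endocytic recycling, rose 1.32-fold with no overlap of the groups in either region (adjusted p = 0.00607), from 37.7 ± 4.78 to 55.7 ± 3.99 CPM in the dorsal and 29.8 ± 1.87 to 35.1 ± 2.61 CPM (SD, n = 5) in the ventral striatum. Acap2, a GTPase activating protein for Arf6, rose 1.21-fold, the kinase Dapk1 1.18-fold, the retromer-associated sorting nexin Snx1 1.19-fold and the lysophospholipase Pnpla7 1.33-fold. Abcc9, a subunit of the ATP-sensitive potassium channel of pericytes, rose 1.52-fold (adjusted p = 0.0269) and was the 1 gene that edgeR called among 19 pericyte and smooth muscle genes (5.26%, against 0.539% of all genes), whose median log2 fold change was -0.09. Tgm2, the tissue transglutaminase, rose 1.68-fold (adjusted p = 0.0485). Its spread was wider, at 58.1 ± 18.7 and 36.4 ± 13.5 CPM (SD, n = 5) in the oxycodone dorsal and ventral libraries. In the 20 fits with 1 library left out, Tgm2 passed in 6, Snx1 in 9, Abcc9 in 16 and Dapk1 in 17. Baiap2, Arpc1b, Ehd1, Acap2 and Pnpla7 passed in all 20.

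Prl (chr13:27057570-27065205), prolactin, a hormone of the anterior pituitary, was counted at low levels in all 20 libraries. The 5 saline libraries of the dorsal striatum gave 1.25, 0.355, 0.577, 0.182 and 0.749 CPM and the 5 oxycodone libraries 6.89, 1.26, 1.59, 1.72 and 1.56 CPM. The ventral libraries gave 0.6399, 0.531, 0.546, 0.544 and 0.861 CPM after saline and 2.08, 4.46, 3.18, 2.91 and 1.33 CPM after oxycodone. The groups did not overlap in either region, and oxycodone dorsal replicate 1 stood far above the other 4. The fold was 4.33 (log2 fold change 2.11 ± 0.38, adjusted p = 0.00523). Summed over the 10 libraries of each treatment, Prl had 339 counts after oxycodone and 75 after saline. Growth hormone (Gh), also of the pituitary, had 1818 and 629 counts, with a fold of 3.22 and an adjusted p of 0.153. The log2 fold change of Gh was 0.75 ± 0.58 in the dorsal and 2.72 ± 0.62 in the ventral striatum. The unadjusted p of that difference was 0.0316 in the edgeR fit of 4 groups, and it was not called. Of the 8 pituitary genes in the table none was at 0 in all 20 libraries. Pou1f1, the factor that defines the cells making both hormones, had 4 counts after oxycodone and 1 after saline. In the same order Pomc had 924 and 663 counts, Tshb 123 and 69, Cga 28 and 7, Ghrhr 3 and 1, and Fshb 2 and 0. Oxycodone dorsal replicate 1 held 20 of the 28 Cga counts and 30 of the 123 Tshb counts, and oxycodone dorsal replicate 2 held 49 of the Tshb counts. The 8 genes together gave 7.27 to 21.1 CPM in saline and 11.4 to 33.7 CPM in oxycodone dorsal libraries, and 4.60 to 11.9 against 13.1 to 66.0 CPM in ventral libraries. Their part in the Prl result was not tested.

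The 8 genes that fell changed by 1.25-fold to 1.54-fold and belonged to no gene list. In edgeR 2 genes were called lower without the libraries of title number 7, and 3 with all 22 libraries. In the 20 fits with 1 library left out, Hnrnpdl and Armcx5 passed in all 20 and Frmd3 in 18. Fbn1 passed in 16, Nynrin in 11, Spag6l and Wdr6 in 7 each and Plxnc1 in 6. Hnrnpdl (chr5:100033577-100039664), an RNA-binding protein that regulates splicing, had the smallest adjusted p among them. Its dorsal values were 87.2, 111, 102, 83.5 and 119 CPM after saline and 74.7, 77.6, 76.6, 90.5 and 81.6 CPM after oxycodone. Ventral values were 158, 172, 184, 154 and 166 CPM and 143, 134, 127, 137 and 129 CPM in the same order. All ventral oxycodone values lay below all ventral saline values, and the dorsal groups overlapped through oxycodone replicate 4. Hnrnpdl was 1.25-fold lower after oxycodone (log2 fold change -0.32 ± 0.06, adjusted p = 0.00719), and the log2 fold change was -0.32 ± 0.09 in the dorsal and -0.32 ± 0.09 in the ventral striatum. Armcx5 (chrX:135742733-135747322), an X-linked armadillo repeat gene, stood at 29.3, 39.8, 32.5, 26.1 and 29.2 CPM after saline and 26.2, 28.1, 24.2, 23.6 and 19.001 CPM after oxycodone in the dorsal striatum, and at 48.2, 41.9, 51.3, 41.7 and 39.4 and 29.02, 34.8, 34.1, 32.9 and 33.01 CPM in the ventral striatum. Its ventral groups were apart and its dorsal groups overlapped, at a fold of 1.32 lower (adjusted p = 0.0148).

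Spag6l, a protein of the central apparatus of motile cilia, was 1.54-fold lower (adjusted p = 0.0422), from 13.2 ± 1.96 to 8.61 ± 3.39 CPM (SD, n = 5) in the dorsal and from 13.1 ± 0.433 to 8.47 ± 1.51 CPM in the ventral striatum. Beside it, 16 of 20 choroid plexus and ependyma genes, the ependyma being ciliated, had a negative change, with a median log2 fold change of -0.26 and none called by edgeR, none past an unadjusted p of 0.05 and none called by DESeq2 (1 lower by limma-voom with quality weights). Their summed level spanned 855 to 5306 CPM in saline and 364 to 4588 CPM in oxycodone dorsal libraries, and their part in the Spag6l result was not tested. Fbn1, the microfibril protein fibrillin 1, was 1.48-fold lower, Frmd3 1.49-fold, Nynrin 1.45-fold, Wdr6 1.301-fold and the semaphorin receptor Plxnc1 1.299-fold. The log2 fold change of Wdr6 was -0.15 ± 0.11 in the dorsal and -0.61 ± 0.11 in the ventral striatum. The unadjusted p of that difference was 0.00578 in the edgeR fit of 4 groups.

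Genes of opioid and dopamine transmission were not among the calls. None of 8 opioid peptide and receptor genes passed in edgeR, where 2 passed an unadjusted p of 0.05 (against 9.92% of all genes). DESeq2 called none of the 8 and limma-voom with quality weights 1 (against 604 of 14648 genes). The mu receptor gene Oprm1 had a log2 fold change of -0.19 ± 0.11 (adjusted p = 0.593), with means of 19.1 ± 4.01 and 15.4 ± 2.78 CPM (SD, n = 5) in the dorsal and 43.2 ± 5.95 and 41.05 ± 6.92 CPM in the ventral striatum, saline first. The delta receptor gene Oprd1 had 0.34 ± 0.11 (adjusted p = 0.161) and the kappa receptor gene Oprk1 0.21 ± 0.11 (adjusted p = 0.541). The peptide precursors Penk and Pdyn had log2 fold changes of -0.02 ± 0.07 and 0.02 ± 0.07. The dopamine receptor genes Drd1 and Drd2 had 0.11 ± 0.06 and 0.00 ± 0.08.

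Among 28 genes of dopamine signalling in projection neurons edgeR and DESeq2 called none, 5 passed an unadjusted p of 0.05, and limma-voom with quality weights called 5. For this and the next lists, 9.92% of all genes passed unadjusted. DESeq2 called 223 of 16966 genes and limma-voom with quality weights 604 of 14648. Ppp1r1b, which encodes the dopamine-regulated phosphatase inhibitor DARPP-32, had a log2 fold change of 0.22 ± 0.07 (adjusted p = 0.143). Of 39 immediate early genes, which report recent neuronal activity, none was called by edgeR or DESeq2 and 5 by limma-voom with quality weights; 10 passed an unadjusted p of 0.05, 34 had a positive change, and the median log2 fold change was 0.19. Fos went from 7.91 ± 4.37 to 9.605 ± 2.52 CPM (SD, n = 5) in the dorsal and from 14.8 ± 3.499 to 19.99 ± 3.88 CPM in the ventral striatum (adjusted p = 0.486). None of 22 clock genes was called by edgeR or DESeq2, with 2 past an unadjusted p of 0.05 and 4 called by limma-voom with quality weights.

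The genes named next were among those with the lowest p for a difference between the regions. Htr1f, a serotonin receptor gene, had log2 fold changes of -1.49 ± 0.26 in the dorsal and 0.22 ± 0.25 in the ventral striatum, and Rgs4, a brake on G protein signalling, -0.16 ± 0.09 and 0.40 ± 0.09. For both the adjusted p of the difference was at least 0.297, so neither was called.

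The libraries of the oxycodone groups did not respond evenly. The labels give a title number to each library, and the 2 libraries numbered 7 (oxycodone dorsal replicate 5 and oxycodone ventral replicate 4) held the highest oxycodone value of their region for 53 and 60 of the 71 genes that rose, and for 51 of them in both regions. Oxycodone ventral replicate 1 held the lowest value for 52. With both libraries numbered 7 left out, 33 genes were called, 32 of them among the 79; 78 of the 79 were still tested and all 78 kept their sign, and the median log2 fold change of the genes that rose was 0.83 against 1.10. Each of the 79 genes also had the same sign within the 2 sequencing lanes of the ventral libraries and within the dorsal libraries with and without the title suffix P; the genes were chosen from these same libraries, so that sign is largely fixed by the choice and is a description. Medians of the 71 rises in these subsets were 0.87 in lane 1, 1.23 in lane 2 (1 library a treatment), 1.12 without the suffix and 1.12 with it.

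Haemoglobin and phagocyte levels were both the highest of their region in the libraries numbered 7. They followed each other in some of the other libraries and not in others. The 4 haemoglobin genes together gave 370.2 to 589.6 CPM in saline and 538 to 1660.4 CPM in oxycodone dorsal libraries, and 97.8 to 235 against 117 to 736 CPM in ventral libraries. The libraries numbered 7 had the highest haemoglobin level of their region, 7.54 and 6.96 on the log2 scale, beside phagocyte levels of 3.56 and 2.97. Among the saline dorsal libraries replicate 3 had the lowest haemoglobin level, 5.39, and the highest phagocyte level, 2.12. Oxycodone dorsal replicate 1 had the second highest haemoglobin level of its region, 7.08, and a phagocyte level of 2.39. Oxycodone ventral replicate 1 had the lowest of both levels in its group, 4.42 and 1.46. Saline ventral replicate 1 had the highest of both in its group, 5.29 and 1.56. Oxycodone ventral replicate 2 had a haemoglobin level of 5.95, below replicate 4 alone in its group, and a phagocyte level of 1.90. Saline ventral replicate 4 had the lowest haemoglobin level of its group, 4.16, and a phagocyte level of 1.11. None of 12 red cell genes was called by edgeR (6 past an unadjusted p of 0.05, 3 called by DESeq2 and 4 by limma-voom with quality weights); Hbb-bs had a fold of 2.12 with an adjusted p of 0.0994. A further edgeR fit held the haemoglobin level constant as a covariate and called no gene, 1050 passed an unadjusted p of 0.05, no other tool was run with that covariate, all 79 genes kept their sign, and the median log2 fold change of the rises was 0.67. Of 42 endothelial genes edgeR called none (19 past an unadjusted p of 0.05, 6 called by DESeq2, 10 by limma-voom with quality weights), with a median log2 fold change of 0.21. Over all genes 9.92% passed unadjusted, DESeq2 called 223 of 16966 and limma-voom with quality weights 604 of 14648. The 42 genes together gave 1757 to 1888 CPM in saline and 1940 to 2650 CPM in oxycodone dorsal libraries, with no overlap. In ventral libraries they gave 1120 to 1421 against 1301 to 1849 CPM, with overlap.

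**Figure D4:**
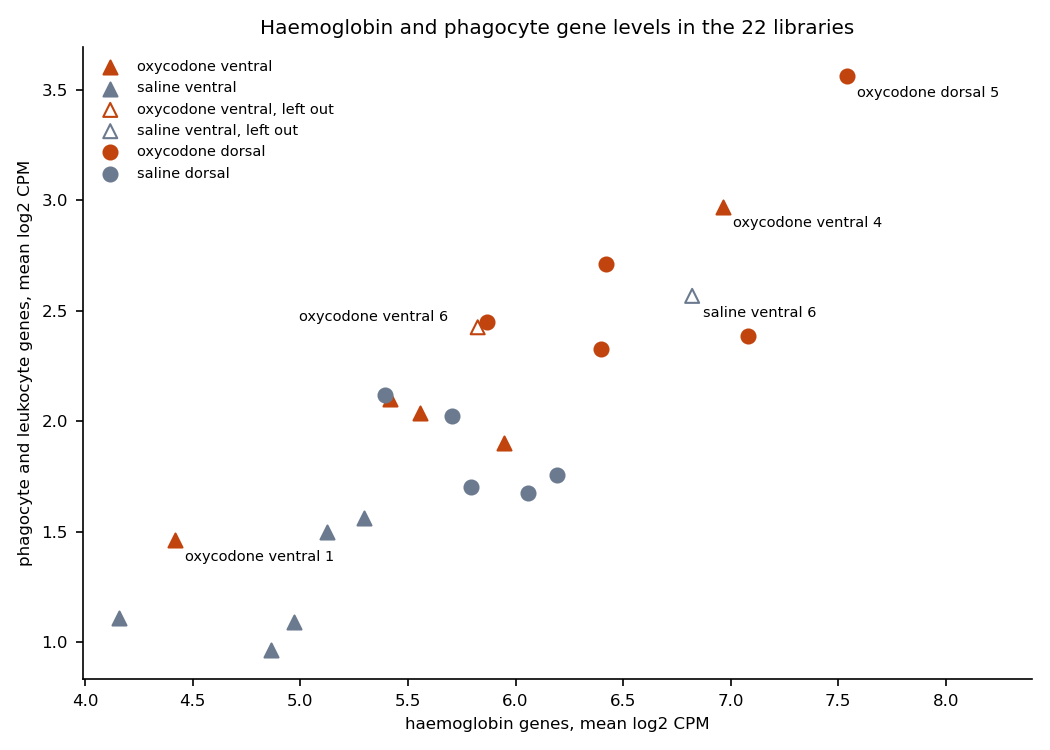
Mean log2 CPM of the phagocyte and leukocyte genes (vertical) against that of 4 haemoglobin genes (horizontal) in all 22 libraries; circles are dorsal, triangles ventral, orange oxycodone, grey saline, and open triangles the 2 libraries left out. The libraries numbered 7 lie at the upper right, at 7.54 and 3.56 and at 6.96 and 2.97, and the left-out saline library lies next to them at 6.82 and 2.57.

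The left-out libraries bear on these levels. Saline ventral replicate 6 had a phagocyte level of 2.57 log2 CPM, above the 0.96 to 1.56 of the 5 saline ventral libraries kept, and a haemoglobin level of 6.82. Oxycodone ventral replicate 6 had a phagocyte level of 2.43, within the 1.46 to 2.97 of the oxycodone ventral libraries kept. With all 22 libraries in the fit 31 genes were called, all of them among the 79, all 79 kept their sign, and the median log2 fold change of the rises was 0.97. Prl, C5ar1, Fpr2, Irf1, Xbp1, Pglyrp1, Baiap2 and Hnrnpdl were among the genes still called, and Lcn2 (adjusted p = 0.0839), C3 (0.0839), Il1b (0.0598), Ptprc (0.0656) and Lyz2 (0.318) were not.

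**Figure D5:**
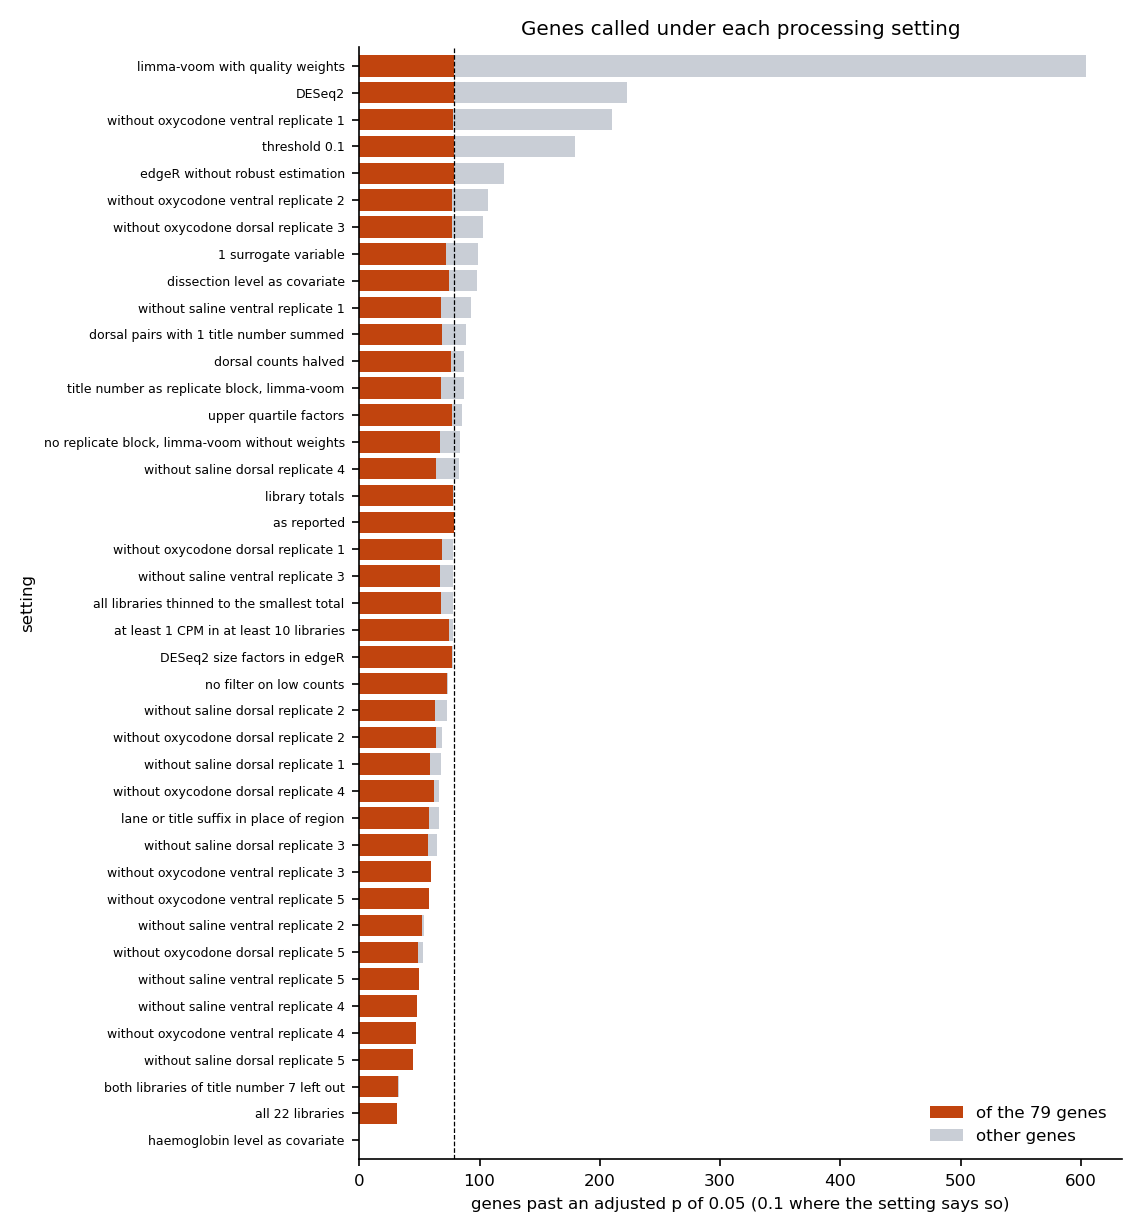
Number of genes past the adjusted p threshold under each processing setting, with the part that belongs to the 79 genes in orange and other genes in grey; the dashed line marks 79. Counts run from 0 with the haemoglobin covariate to 604 with limma-voom and quality weights.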

How the data were processed

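The deposited table holds raw counts of reads per gene (23119 Ensembl gene models, 22205 with a symbol in the gene name table used here), 1 column for each of 22 libraries, made by the authors. Per the labels' protocols, total RNA was extracted with miRNeasy and libraries were made with a stranded total RNA kit after ribosomal RNA removal. The submitters' processing notes name CASAVA 1.8.2, STAR 2.3 and featureCounts, and the builds mm10, GRCm38 and mm9 with no role. Strand, multimapping and mate settings are not given in the sources used here. Even numbers made up 70.8% to 77.4% of counts from 1 to 19 in dorsal and 41.0% to 43.6% in the kept ventral libraries, so a fragment may have been counted per mate in the dorsal libraries.

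The test was edgeR 4.0.16 (R 4.3.3): TMM factors, filterByExpr, the robust quasi-likelihood F test, two-sided, with Benjamini-Hochberg adjustment over all genes tested and a threshold of 0.05, with region as a covariate. Effects within regions and their difference came from a fit of 4 groups. Columns were matched to libraries by title, and replicates were numbered in accession order. The left-out libraries, the gene lists and the tests were chosen with earlier results of these data known. No 2 libraries of a group agreed within sampling noise (the smallest chi-square per degree of freedom was 2.88). Genes named are the 12 largest rises and the 8 largest falls at a mean of 1 CPM or more, called list members, up to 3 lowest-p members of each list, and a set of opioid, dopamine, stress and hormone genes. Others (Stat3, P2ry12, Cx3cr1, C1qa, S100a9, Saa3, Hp, Pglyrp1, Arpc1b, Baiap2, Ehd1, Acap2, Dapk1, Snx1, Pnpla7, Casp4, Dnaja4 and those named for the promoter site or the region difference) were chosen after their values were seen. Gene positions are from GENCODE M21 and promoters from RefSeq. Alternatives used DESeq2 1.42.0, limma 3.58.1 and sva 3.50.0, and the scripts were tested on simulated data. Results for a few genes that are counted among the list members are not reported here.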

Additional observations from a re-analysis of the deposited data

Results flagged for a closer look

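The level of 16 genes and of 5 marker lists was screened in each of the 4 groups (84 sets of 5 libraries) for a single library far from the others by Dixon's test at the 95% level, which chance passes in about 1 of 20 groups; 9 were outlying. Oxycodone ventral replicate 4 was the highest and far from the other 4 oxycodone ventral libraries for Ptprc (38.8 CPM), Lyz2 (27.8 CPM), Fpr2 (5.09 CPM), Cybb (12.5 CPM) and C3 (19.3 CPM). Oxycodone dorsal replicate 5, which has the same title number, was so for Lyz2 (76.4 CPM) and Il1b (13.05 CPM). Oxycodone dorsal replicate 1 stood apart for Prl (6.89 CPM), and saline dorsal replicate 3 for C3 (8.94 CPM).

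The libraries outside the comparison also carried signal above the kept saline ventral libraries. Saline ventral replicate 6 had mean levels of 2.57 log2 CPM for phagocyte genes, 6.82 for haemoglobin genes and 6.36 for glutamatergic neuron genes, and oxycodone ventral replicate 6 had 3.28 for choroid plexus and ependyma genes.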

How the results depend on the processing

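Of the processing choices tried, other normalizations, low-count filters, thinning to equal library totals (which is not equal depth if dorsal fragments were counted per mate), a lane or suffix term, summed dorsal pairs and halved dorsal counts left the number of called genes between 66 and 89, against 79 as reported. With the dissection level (dorsal less ventral striatal marker level) as a covariate 98 genes were called, 75 of them among the 79. With 1 surrogate variable estimated by sva 99 were called, 72 of them among the 79. The count was 120 in edgeR without robust estimation, 223 with DESeq2, 604 with limma-voom and quality weights (64.6% of them higher, against 89.9% as reported), 179 at a threshold of 0.1, 31 with all 22 libraries and 0 with the haemoglobin level as a covariate. Leaving out 1 library at a time gave 45 to 210 genes: 45 without saline dorsal replicate 5, 47 and 48 without oxycodone and saline ventral replicate 4, 50 without saline ventral replicate 5, and 210 without oxycodone ventral replicate 1. DESeq2 and limma-voom with quality weights called all 79 genes, while limma-voom without weights called 67 of them. Il1b, Irf1 and Socs3 were among those that limma-voom without weights did not call (adjusted p = 0.114, 0.0678 and 0.198). In edgeR 39 of the 79 passed in each of the 20 fits with 1 library left out. Leaving out both libraries numbered 7, and halving the dorsal counts, were chosen after seeing the data; the first gave 33 genes. The number of genes past an unadjusted p of 0.05 in the same direction in both regions, 173 as reported, was 110 with the haemoglobin covariate, 92 without the libraries numbered 7, and 97 (without oxycodone ventral replicate 4) to 273 (without oxycodone ventral replicate 1) with 1 library left out. The difference between regions had 0 called genes under every setting run. Where fewer libraries entered, fewer samples were tested; otherwise the cause was not tested.

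Title numbers were tried as a replicate block, as a random effect in limma-voom, since each number lies within 1 treatment. That fit called 87 genes, 68 of them among the 79, against 84 without the replicate block, 67 of them among the 79. The block uses 1 correlation for all genes (-0.017 in the fit of 4 groups), so it does not measure sharing among the called genes alone. The labels do not say what a number marks, and deviations of same-numbered libraries across regions correlated at -0.05 to 0.32 (median 0.02, 2 of 10 pairs over 0.1), so the pairing was not used. Precision is set by 5 libraries a group and, for genes such as C5ar1, Prl and Ifi205, by counts of a few reads a library.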
